A study of Mus musculus with 16 samples.

Results

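The genes described here are 38 genes of glycolysis and the hypoxia response: 3 glucose and lactate transporters, 15 glycolytic enzymes, 3 enzymes that regulate glycolysis, the hypoxia-inducible factor subunit Hif1a and 16 other genes known as targets of hypoxia-inducible factor (HIF). They were chosen by name, and a gene was measured by its brightest detected probe. No probe matched Gapdh, so 37 of the 38 were tested, among 18993 genes in all. The cells were 4TO7, a line from a mouse mammary carcinoma, kept in medium with 10% serum. Their RNA was read on 16 Agilent arrays with 2 colours, each setting 1 sample against a universal reference RNA from 11 mouse cell lines.

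All cells carried pMSCV retroviral vectors, in 8 groups of 2 repeats, A and B, which the series' design calls biological replicates. Cells overexpressing the Cluster 1 miRNAs had a Puro vector as control, and cells overexpressing the Cluster 2 miRNAs a Hygro vector. Cells overexpressing both (Clusters 1+2) had the Hygro and Puro vectors together. Cells overexpressing CDH1, which encodes E-cadherin, had a Puro vector control of their own. The series is about the miR-200 family, which is encoded in a pair of genomic clusters and keeps epithelial cells epithelial, and E-cadherin is the adhesion protein of those cells. Which miRNAs each cluster label covers, and whether the lines are pools or clones and the repeats separate infections, the labels used here do not say. The p-values therefore measure the spread between these repeats, pooled over the 8 groups. The sample carried the dye Cy3 in Cluster 2, Clusters 1+2 and their vectors (8 arrays, repeat A on slide 1 and repeat B on slide 2) and Cy5 in CDH1, Cluster 1 and their vectors (8 arrays, slide 3 for CDH1 and its vector, slide 4 for Cluster 1 and its vector). Levels were therefore set side by side only within a dye.

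Glycolysis splits glucose into pyruvate, which lactate dehydrogenase turns into lactate when the mitochondria do not take it up. HIF is a pair of proteins, an alpha subunit such as Hif1a and Arnt, that binds a short DNA core in hypoxia response elements and switches on glycolytic enzymes, glucose transporters, angiogenic factors and mitophagy genes. Prolyl hydroxylases such as Egln1 and Egln3 mark the alpha subunit for destruction when oxygen is present, so that HIF is regulated mainly at the protein, and tumour cells often run this programme without hypoxia.

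The promoters of 6 members are shown because at least 1 of their calls against a matched vector, described below, held under every alternative processing tried, and because they hold the core that HIF binds. The calls that held are those of Slc2a1, Aldoc, Pfkfb3, Egln3 and Ddit4 in CDH1 and of Hk2 and Egln3 in Clusters 1+2; other calls of these genes were lost under some alternatives. Each is the 250 bases before the start of transcription, from RefSeq on GRCm38.p6, written 5′ to 3′ on the gene's strand, with each core (ACGTG or GCGTG, read on either strand, so that CACGT and CACGC also count) in capitals. Slc2a1 lies at chr4:119108495-119108744 on the plus strand, Hk2 at chr6:82774455-82774704 on the minus strand, Aldoc at chr11:78322823-78323072 on the plus strand, Pfkfb3 at chr2:11553930-11554179 on the minus strand, Egln3 at chr12:54203875-54204124 on the minus strand and Ddit4 at chr10:59951771-59952020 on the minus strand.
Slc2a1: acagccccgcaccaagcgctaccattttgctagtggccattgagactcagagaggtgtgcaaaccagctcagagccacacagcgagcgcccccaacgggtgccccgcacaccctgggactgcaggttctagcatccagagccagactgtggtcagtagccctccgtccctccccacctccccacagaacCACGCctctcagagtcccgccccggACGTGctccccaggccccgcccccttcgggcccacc
Hk2: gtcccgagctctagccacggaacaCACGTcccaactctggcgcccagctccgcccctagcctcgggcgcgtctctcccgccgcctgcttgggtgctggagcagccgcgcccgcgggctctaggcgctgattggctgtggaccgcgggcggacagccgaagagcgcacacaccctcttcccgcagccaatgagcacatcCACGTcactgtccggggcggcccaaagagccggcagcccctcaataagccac
Aldoc: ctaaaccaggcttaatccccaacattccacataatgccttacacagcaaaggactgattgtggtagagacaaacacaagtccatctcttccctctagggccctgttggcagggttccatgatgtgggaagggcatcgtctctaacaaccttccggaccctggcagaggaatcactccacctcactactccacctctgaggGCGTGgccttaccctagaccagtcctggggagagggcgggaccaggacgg
Pfkfb3: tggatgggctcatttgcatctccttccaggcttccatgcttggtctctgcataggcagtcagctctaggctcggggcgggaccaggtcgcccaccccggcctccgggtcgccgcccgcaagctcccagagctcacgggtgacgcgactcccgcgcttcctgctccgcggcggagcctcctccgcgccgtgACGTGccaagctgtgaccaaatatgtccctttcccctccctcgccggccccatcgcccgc
Egln3: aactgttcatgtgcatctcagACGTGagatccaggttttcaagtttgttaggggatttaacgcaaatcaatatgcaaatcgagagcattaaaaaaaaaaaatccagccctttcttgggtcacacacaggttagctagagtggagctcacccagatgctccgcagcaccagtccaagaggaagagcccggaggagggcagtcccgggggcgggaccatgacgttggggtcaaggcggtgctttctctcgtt
Ddit4: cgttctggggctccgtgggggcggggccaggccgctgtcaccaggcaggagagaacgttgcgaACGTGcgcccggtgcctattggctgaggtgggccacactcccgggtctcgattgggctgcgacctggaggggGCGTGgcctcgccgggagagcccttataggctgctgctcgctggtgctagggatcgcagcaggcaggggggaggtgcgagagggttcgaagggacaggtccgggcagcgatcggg

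The cores began 61 and 36 bases before the start in Slc2a1, 187 and 115 in Ddit4, 226 and 52 in Hk2, 60 in Pfkfb3, 50 in Aldoc and 229 in Egln3. A window was listed for 34 of the 38 members, and 27 of these (79.4%) held at least 1 core, against 38.6% of the first listed windows of all 27025 genes in the table. The share was 10 of 15 glycolytic enzymes and 11 of 13 other HIF targets. It was 4 of 7 (57.1%) for the members with a window that were called lower in both Clusters 1+2 and CDH1. Vegfa was the other member with such calls, in Clusters 1+2 and CDH1, and these letters are not in its window. Known HIF targets are likely to hold the core, a CACGTG counts on both strands, and a match describes the sequence only.

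Values below are log2 ratios of sample over reference per array, and differences are log2 fold changes with their standard error (SE) and the adjusted p of limma's moderated test. Members whose p stayed under 0.05 after Benjamini-Hochberg adjustment across every gene tested are called. On the chosen probe, 35 of the 37 members were well above background on all 16 arrays. The reference channel was saturated on 6 or more arrays for 6 abundant enzymes (Aldoa, Gpi1, Ldha, Pgam1, Pgk1 and Tpi1). The chosen probe of Aldoa had no value on any Cy3 array, so 36 members were tested there. The Puro vector for CDH1 array of repeat B was the dimmest, with 30.5% of probes well above background against 45.99% to 69.02% elsewhere. Krt8, Krt18 and Vim, listed as markers of the carcinoma line, were above background on 16 arrays. The targeted gene Cdh1 was higher in CDH1 by 0.61 (SE 0.13, adjusted p = 0.0056) against its own vector, and whether its probe reads the transgene was not tested. Of 15 measured markers of leukocytes, endothelium, red cells and fat, 7 were above background on fewer than 10 arrays and 2, Cd3e and Fabp4, on all 16. Of the 37 members tested, 27 were called in at least 1 comparison with a matched vector, as were 33.7% of all genes. In each matched comparison a larger share was called among genes well above background on all 16 arrays than among all genes. Most members were such genes.

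**Figure D1:**
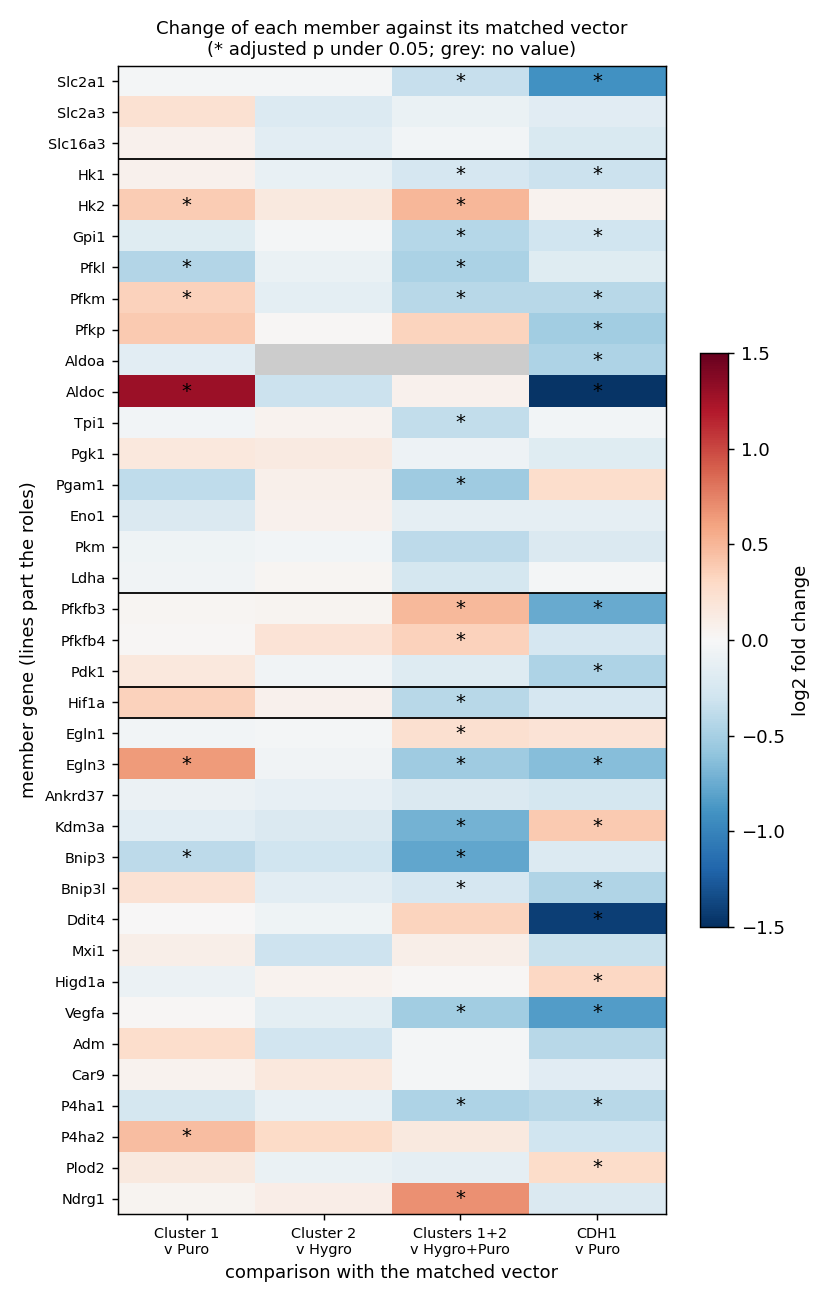
Log2 fold change of each of the 37 members (rows, parted by role) in the 4 comparisons with a matched vector (columns), from blue (lower) to red (higher), with a capped colour scale; a star marks an adjusted p under 0.05 and grey a missing value. The Cluster 2 column holds no star, while the Clusters 1+2 column holds 19 and the CDH1 column 17, most of them blue.

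In Cluster 1 against its Puro vector, 5 members rose and 2 fell of 37, while 4.86% of all genes were called higher and 3.4% lower. Aldoc, the aldolase isozyme known best from brain, rose 2.439-fold, and Egln3, a prolyl hydroxylase that HIF itself induces, rose 1.557-fold. The hexokinase Hk2 (0.38, SE 0.080, adjusted p = 0.0105), the muscle phosphofructokinase Pfkm (0.34, SE 0.080, adjusted p = 0.0223) and the collagen prolyl hydroxylase subunit P4ha2 (0.46, SE 0.10, adjusted p = 0.0159) also rose. The P4ha2 call was lost without Cluster 1 A (0.26) and without either array of the Puro vector for Cluster 1 (0.48 and 0.44). The liver phosphofructokinase Pfkl (-0.44, SE 0.11, adjusted p = 0.0324) and the mitophagy receptor Bnip3 (-0.40, SE 0.11, adjusted p = 0.0469) fell. The 3 transporters, the 3 regulators and Hif1a (0.34, SE 0.11, adjusted p = 0.074) were not called. Without 1 array at a time the count of 7 went to 3 without Cluster 1 A, 3 without Cluster 1 B, 4 without the Puro vector for Cluster 1 A and 2 without its B. Aldoc and Egln3 were called in each of these 4 fits. With median centring the split was 5 higher and 0 lower by limma, and from the sample channel alone 1 higher and 6 lower. Over all genes median centring called 1130 of 18974, 783 of them higher, and the sample channel alone 1372, 843 of them higher. Of the markers of other cell types Hba-a1 of red cells rose here (0.38), and its part in the result was not tested.

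Aldoc read -1.32 and -1.27 with the Puro vector for Cluster 1 and 0.12 and -0.14 with Cluster 1. In the CDH1 experiment it read -0.29 and -0.13 with the vector and -1.63 and -1.74 with CDH1. The Cluster 1 arrays thus lay near the Puro vector for CDH1, and the CDH1 arrays below both vectors, with no overlap between the groups of either matched pair. The difference was 1.29 (SE 0.14, adjusted p = 0.000118) for Cluster 1 and -1.47 (SE 0.14, adjusted p = 2.12e-05) for CDH1, and the Cluster 1 call was lost when marked outlier spots were kept. On the Cy3 arrays Aldoc read -2.06 and -1.96 with the Hygro vector, -2.45 and -2.21 with Cluster 2, -2.19 and -1.82 with the Hygro and Puro vectors and -2.09 and -1.78 with Clusters 1+2. It was not called in either Cy3 comparison.

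Egln3 read -0.42 and -0.50 with the Puro vector for Cluster 1 and 0.22 and 0.14 with Cluster 1, a difference of 0.64 (SE 0.065, adjusted p = 7.67e-05). With the Puro vector for CDH1 it read 0.03 and -0.0001, and with CDH1 -0.64 and -0.62, a difference of -0.64 (SE 0.065, adjusted p = 3.49e-05). It read -0.66 and -0.66 with the Hygro vector and -0.72 and -0.71 with Cluster 2. Egln3 was therefore high in Cluster 1 and low in CDH1, each against its own vector, and Cluster 2 differed from its vector by -0.05 without a call. With the Hygro and Puro vectors it read -0.32 and -0.41 and with Clusters 1+2 -0.92 and -0.88, a fall of 0.54 (SE 0.065, adjusted p = 4.89e-05). The Cluster 1 call was lost when the sample channel was used alone, and the other 2 calls held under all alternatives.

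In Cluster 2 against the Hygro vector no member was called of 36 by limma. At an unadjusted p under 0.05 there were 2 higher and 5 lower, and the lowest adjusted p was 0.201. Over all genes 1.72% were called higher and 1.03% lower. With arrays median centred in place of loess 5 members were called higher, while 2129 of all 18945 genes were called higher. The epithelial marker Cdh1 was called in this comparison (log2 fold change 1.93, adjusted p = 2.74e-06). Of the markers of other cell types, 1 of 3 fat markers was called lower here, and its part in the result was not tested.

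In Clusters 1+2 against the Hygro and Puro vectors 19 of 36 members were called, 5 higher and 14 lower. Over all genes 12.1% were called higher and 12.6% lower. Of genes well above background on all 16 arrays, as most members were, 3905 of 8963 were called, 1872 of them higher. Among the glycolytic enzymes 6 fell (Hk1, Gpi1, Pfkl, Pfkm, Tpi1 and Pgam1) and 1, Hk2, rose, of 13 tested. Both Pfkfb3 and Pfkfb4, the bifunctional enzymes that set the level of fructose 2,6-bisphosphate and so the pace of phosphofructokinase, rose, by 0.49 (SE 0.096, adjusted p = 0.00213) and 0.35 (SE 0.082, adjusted p = 0.00714). The Pfkfb4 call was lost without the Hygro and Puro vectors B (0.26). Of the 16 other HIF targets 6 fell (Bnip3, Kdm3a, Egln3, Vegfa, P4ha1 and Bnip3l) and 2 rose (Ndrg1 and Egln1). The HIF subunit Hif1a fell by 0.42 (SE 0.11, adjusted p = 0.0111), a call lost in 7 of 17 alternatives, without the Hygro and Puro vectors B (-0.28) and without Clusters 1+2 A (-0.38) among them. Slc2a1, the main glucose importer of dividing cells, fell by 0.35 (SE 0.098, adjusted p = 0.0202). Without 1 array the count went from 18 (without the Hygro and Puro vectors A) to 12 (without their B), and was 15 without Clusters 1+2 A and 13 without B. The fat marker Fabp4 fell here (-1.86) and no other marker of another cell type was called; its part in the result was not tested.

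Bnip3 was the member that fell furthest in Clusters 1+2. It read -2.38 and -2.23 with the Hygro and Puro vectors and -3.17 and -3.01 with Clusters 1+2, a difference of -0.78 (SE 0.11, adjusted p = 0.000206) that was -0.78 on slide 1 and -0.78 on slide 2. It read -2.56 and -2.42 with the Hygro vector and -2.90 and -2.68 with Cluster 2, where both Cluster 2 arrays were lower than both vector arrays without a call. On the Cy5 arrays it read -2.00 and -1.73 with the Puro vector for CDH1, -2.04 and -2.11 with CDH1, -1.80 and -1.77 with the Puro vector for Cluster 1 and -2.08 and -2.28 with Cluster 1. Its fall in Cluster 1 was lost in 12 of 17 alternatives, every fit without 1 array among them (-0.50 to -0.30).

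Kdm3a, a histone demethylase induced by HIF, read -0.52 and -0.37 with the Hygro and Puro vectors and -1.19 and -1.10 with Clusters 1+2, a fall of 0.70 (SE 0.088, adjusted p = 6.54e-05). It read -0.45 and -0.52 with the Hygro vector and -0.68 and -0.72 with Cluster 2. With the Puro vector for CDH1 it read -0.75 and -0.98 and with CDH1 -0.43 and -0.52, a rise of 0.39 (SE 0.088, adjusted p = 0.00987). Kdm3a thus moved in opposite directions in Clusters 1+2 and CDH1, and the rise was not called without the Puro vector for CDH1 B (0.27) or without CDH1 A (0.34). It read -0.45 and -0.53 with the Puro vector for Cluster 1 and -0.60 and -0.68 with Cluster 1. Against that other Puro vector CDH1 differed by 0.01 only.

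Vegfa, the angiogenic growth factor, read -0.95 and -1.01 with the Hygro and Puro vectors and -1.55 and -1.46 with Clusters 1+2, a fall of 0.52 (SE 0.063, adjusted p = 4.86e-05). The slides gave -0.59 and -0.44. It read -1.06 and -1.03 with the Hygro vector and -1.19 and -1.19 with Cluster 2. With the Puro vector for CDH1 it read -0.65 and -0.67 and with CDH1 -1.46 and -1.54, a fall of 0.83 (SE 0.063, adjusted p = 3.48e-06). The Puro vector for Cluster 1 gave -1.15 and -1.17 and Cluster 1 -1.13 and -1.15. Vegfa was therefore lowest in the Clusters 1+2 and CDH1 arrays of each dye, and Cluster 1 overlapped its own vector. The 2 further Vegfa probes gave -0.44 and -0.31 in Clusters 1+2 and -0.50 and -0.59 in CDH1.

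Ndrg1, a stress and differentiation gene of hypoxic cells, rose in Clusters 1+2. It read -3.77 with the Hygro and Puro vectors A, was missing on their B, and read -3.19 and -2.98 with Clusters 1+2, a difference of 0.68 (SE 0.13, adjusted p = 0.00229). It read -3.68 and -3.45 with the Hygro vector and -3.60 and -3.33 with Cluster 2. On the Cy5 arrays it read -2.83 and -2.78 with the Puro vector for CDH1, -3.01 and -3.04 with CDH1, -3.20 and -3.22 with the Puro vector for Cluster 1 and -3.16 and -3.17 with Cluster 1. The rise rests on a single vector array, was within slide 1 0.57, and was lost when the spread of the arrays was scaled.

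**Figure D2:**
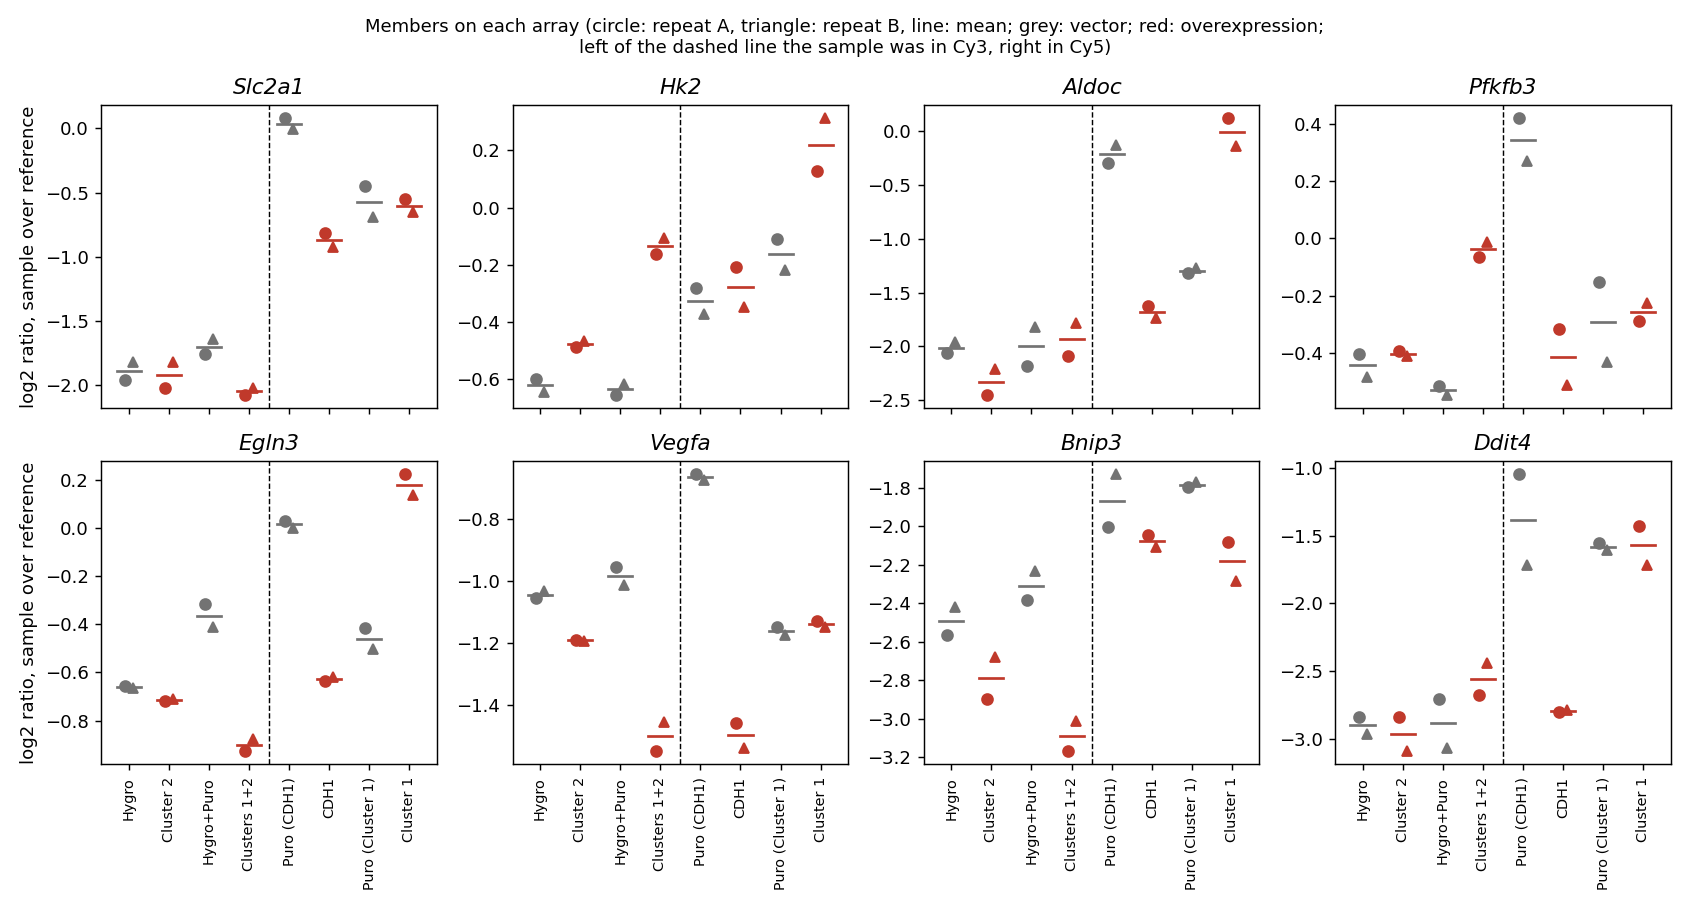
Log2 ratio of sample over reference for 8 members on each of the 16 arrays (circle, repeat A; triangle, repeat B; line, group mean; grey, vector; red, overexpression), with Cy3 samples left of the dashed line and Cy5 samples right of it. In the Slc2a1, Pfkfb3, Egln3 and Vegfa panels the Puro vector for CDH1 stands well above the Puro vector for Cluster 1. In the Ddit4 panel CDH1 lies more than 1 log2 unit below all other Cy5 arrays.

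The first steps of glycolysis moved apart in Clusters 1+2. Hk2, the inducible hexokinase, read -0.65 and -0.62 with the Hygro and Puro vectors and -0.16 and -0.11 with Clusters 1+2, a rise of 0.50 (SE 0.080, adjusted p = 0.00048). It read -0.60 and -0.64 with the Hygro vector and -0.49 and -0.47 with Cluster 2. It read -0.11 and -0.22 with the Puro vector for Cluster 1, 0.13 and 0.31 with Cluster 1, -0.28 and -0.37 with the Puro vector for CDH1 and -0.21 and -0.35 with CDH1. Hk2 was thus highest within each dye where Cluster 1 was expressed, and it was the only member called the same way in Cluster 1 against both Puro vectors (0.55, SE 0.080, adjusted p = 0.000949 against the one for CDH1). Against its own vector the call was lost without Cluster 1 B (0.29) and without the Puro vector for Cluster 1 B (0.33).

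Hk1, the hexokinase most cells have, read -0.77 and -0.69 with the Hygro and Puro vectors and -1.02 and -0.94 with Clusters 1+2, a fall of 0.25 (SE 0.069, adjusted p = 0.0155). It read -0.75 and -0.78 with the Hygro vector and -0.87 and -0.88 with Cluster 2. With the Puro vector for CDH1 it read -0.49 and -0.63 and with CDH1 -0.92 and -0.85, a fall of 0.33 (SE 0.069, adjusted p = 0.00655). The Puro vector for Cluster 1 gave -0.88 and -0.89 and Cluster 1 -0.81 and -0.84, so that the Puro vector for CDH1 was the highest of the Cy5 groups. The Clusters 1+2 call was lost without the Hygro and Puro vectors B (-0.21) and without Clusters 1+2 A (-0.21), and the CDH1 call without the Puro vector for CDH1 A (-0.26) and without CDH1 A (-0.29).

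Gpi1, the isomerase of the second step, read -0.73 and -0.81 with the Hygro and Puro vectors and -1.16 and -1.23 with Clusters 1+2, a difference of -0.42 (SE 0.062, adjusted p = 0.000256). It read -1.09 and -1.09 with the Hygro vector, -1.14 and -1.11 with Cluster 2, -0.79 and -0.75 with the Puro vector for CDH1 and -1.08 and -1.06 with CDH1. It read -0.90 and -0.88 with the Puro vector for Cluster 1 and -1.04 and -1.11 with Cluster 1. The reference channel of this probe was saturated on 8 arrays, and a second Gpi1 probe that was saturated nowhere gave 0.19 in Clusters 1+2 and 0.13 in CDH1, so the direction for Gpi1 depended on the probe.

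The 3 phosphofructokinases of the committing step differed from each other. Pfkl read -0.70 and -0.36 with the Hygro and Puro vectors and -0.96 and -1.05 with Clusters 1+2, a fall of 0.47 (SE 0.11, adjusted p = 0.00834) that was -0.26 on slide 1 and -0.69 on slide 2. It read -0.84 and -0.79 with the Hygro vector, -0.93 and -0.90 with Cluster 2, -1.47 and -1.37 with the Puro vector for CDH1 and -1.57 and -1.65 with CDH1. It read -1.44 and -1.15 with the Puro vector for Cluster 1 and -1.67 and -1.80 with Cluster 1. Pfkl thus lay lower in both lines that express Cluster 1, but the Clusters 1+2 call was lost without the Hygro and Puro vectors B (-0.30) and without Clusters 1+2 B (-0.43), and the Cluster 1 call without Cluster 1 A (-0.51), Cluster 1 B (-0.38) or the Puro vector for Cluster 1 B (-0.29).

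Pfkm read -1.16 and -0.98 with the Hygro and Puro vectors and -1.51 and -1.47 with Clusters 1+2, a fall of 0.42 (SE 0.080, adjusted p = 0.00219). It read -1.18 with the Hygro vector A, was missing on B, and read -1.36 and -1.29 with Cluster 2. With the Puro vector for CDH1 it read -0.74 and -0.58 and with CDH1 -1.04 and -1.12, a fall of 0.42 (SE 0.080, adjusted p = 0.00419). The Puro vector for Cluster 1 gave -1.18 and -1.18 and Cluster 1 -0.81 and -0.86. Pfkm fell in Clusters 1+2 and CDH1 but rose in Cluster 1, a rise that was lost without any 1 of the 4 arrays (0.31 to 0.37).

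Pfkp read -1.24 and -1.13 with the Puro vector for CDH1 and -1.68 and -1.75 with CDH1, a fall of 0.53 (SE 0.13, adjusted p = 0.0184). It read -1.72 and -1.73 with the Puro vector for Cluster 1 and -1.20 and -1.46 with Cluster 1. On the Cy3 arrays it read -2.13 and -2.03 with the Hygro vector, -2.28 and -1.85 with Cluster 2, -2.16 and -1.87 with the Hygro and Puro vectors and -1.70 and -1.65 with Clusters 1+2. The CDH1 call was lost without the Puro vector for CDH1 B (-0.47), CDH1 A (-0.56) or CDH1 B (-0.49), and of the other Pfkp probes 1 gave -0.47 and 1 gave 0.07. With the slides as a replicate block, which pairs the Cy3 arrays, Pfkp rose in Clusters 1+2 (0.33, SE 0.10, adjusted p = 0.0404) and Ldha fell (-0.26, SE 0.075, adjusted p = 0.0381); neither was called without the block.

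Of the later enzymes Pgam1, the phosphoglycerate mutase, read -0.55 and -0.67 with the Hygro and Puro vectors and -0.92 and -1.36 with Clusters 1+2, a fall of 0.54 (SE 0.13, adjusted p = 0.00884). It read -0.85 and -1.11 with the Hygro vector and -0.79 and -1.03 with Cluster 2, so that repeat B was the lower of each Cy3 pair. On the Cy5 arrays it read -0.99 and -1.04 with the Puro vector for CDH1, -0.79 and -0.70 with CDH1, -0.70 and -0.66 with the Puro vector for Cluster 1 and -1.05 and -1.08 with Cluster 1, with no call in either matched comparison. The fall was lost without Clusters 1+2 B (-0.32) and without the Hygro and Puro vectors A (-0.48). Tpi1, the triose phosphate isomerase, fell by 0.37 (SE 0.089, adjusted p = 0.00754), with -0.16 from slide 1 and -0.58 from slide 2. This call was lost in 6 of 16 alternatives, without the Hygro and Puro vectors B (-0.30) and without Clusters 1+2 B (-0.23) among them. Pgk1, Eno1, Pkm and Ldha, further late enzymes, were called in none of the 4 matched comparisons. Their differences lay between -0.39 (Pkm in Clusters 1+2) and 0.16 (Pgk1 in Cluster 1).

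In CDH1 against its Puro vector 17 of 37 members were called, 3 higher and 14 lower. Over all genes 7.67% were called higher and 6.81% lower. With only genes well above background on all 16 arrays, 22 of 35 members were called, where 3277 of 8982 genes were. Slc2a1, 2 of the 3 regulators (Pfkfb3 and Pdk1), 6 of 14 glycolytic enzymes (Hk1, Gpi1, Pfkm, Pfkp, Aldoa and Aldoc) and 5 of 16 other HIF targets (Ddit4, Vegfa, Egln3, Bnip3l and P4ha1) fell. The targets Kdm3a, Higd1a (0.31, SE 0.084, adjusted p = 0.0248), a mitochondrial protein, and Plod2 (0.28, SE 0.077, adjusted p = 0.0299), a collagen lysyl hydroxylase, rose. A second Higd1a probe gave -0.18, and the Higd1a call was lost in each of the 4 fits without 1 array (0.28 to 0.35). The Plod2 call was lost without the Puro vector for CDH1 A (0.24), its B (0.31) or CDH1 A (0.19). The count was 14 without the Puro vector for CDH1 A, 11 without its B, the dim array, 12 without CDH1 A and 14 without CDH1 B. The split of 3 higher and 14 lower became 4 and 7 with median centring, where 3828 of 18984 genes were called, 3166 of them higher. Fabp4 rose by 0.43, the 1 marker of another cell type called here, and its part in the result was not tested. Of the 14 falls 8 were also called lower in Clusters 1+2 (Slc2a1, Hk1, Gpi1, Pfkm, Egln3, Bnip3l, Vegfa and P4ha1), while 2.43% of all genes were called lower in both. The 8 include Gpi1, whose direction depended on the probe, and Bnip3l, whose call in Clusters 1+2 was lost in 10 of 17 alternatives. Both Kdm3a and Pfkfb3 were called in opposite directions, as were 2.52% of all genes.

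Slc2a1 read 0.08 and -0.01 with the Puro vector for CDH1 and -0.81 and -0.92 with CDH1, a fall of 0.90 (SE 0.098, adjusted p = 6.38e-05). It read -0.45 and -0.69 with the Puro vector for Cluster 1 and -0.55 and -0.65 with Cluster 1. The CDH1 arrays were the lowest of the Cy5 arrays and the Puro vector for CDH1 the highest, and Cluster 1 lay within the range of its own vector. On the Cy3 arrays Slc2a1 read -1.96 and -1.82 with the Hygro vector, -2.02 and -1.82 with Cluster 2, -1.76 and -1.64 with the Hygro and Puro vectors and -2.08 and -2.02 with Clusters 1+2. The fall in Clusters 1+2 was lost without the Hygro and Puro vectors B (-0.29), Clusters 1+2 A (-0.32) or Clusters 1+2 B (-0.37), while the CDH1 call held under all alternatives (-1.10 to -0.45).

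Pfkfb3 read 0.42 and 0.27 with the Puro vector for CDH1 and -0.32 and -0.51 with CDH1, a fall of 0.76 (SE 0.096, adjusted p = 0.00021). It read -0.15 and -0.43 with the Puro vector for Cluster 1, which overlaps the CDH1 arrays, and -0.29 and -0.22 with Cluster 1. On the Cy3 arrays it read -0.40 and -0.48 with the Hygro vector, -0.39 and -0.41 with Cluster 2, -0.51 and -0.54 with the Hygro and Puro vectors and -0.07 and -0.01 with Clusters 1+2. Clusters 1+2 thus stood above all other Cy3 arrays. Pdk1, a kinase that holds back the use of pyruvate within the mitochondria, fell in CDH1 by 0.47 (SE 0.086, adjusted p = 0.00276).

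Ddit4, a stress-induced inhibitor of mTOR signalling, was the other-HIF-target member with the largest difference in CDH1. It read -1.05 and -1.72 with the Puro vector for CDH1, -2.81 and -2.79 with CDH1, -1.56 and -1.61 with the Puro vector for Cluster 1 and -1.43 and -1.72 with Cluster 1. Both CDH1 arrays lay more than 1 log2 unit below all 6 other Cy5 arrays. CDH1 differed by -1.41 (SE 0.19, adjusted p = 0.000301) from its own Puro vector and by -1.21 (SE 0.19, adjusted p = 0.00644) from the other. The second of these was not called without CDH1 B (-1.22) or without the Puro vector for Cluster 1 A (-1.19). On the Cy3 arrays Ddit4 read -2.84 and -2.96 with the Hygro vector, -2.84 and -3.09 with Cluster 2, -2.70 and -3.07 with the Hygro and Puro vectors and -2.68 and -2.44 with Clusters 1+2, and was not called.

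Of the 14 falls in CDH1, 4 were also called against the other Puro vector. Against the Puro vector for Cluster 1 CDH1 had 4 members lower and 0 higher of 37 by limma (1 higher at an unadjusted p under 0.05), while 1.15% of all genes were called lower and 1.25% higher. The 4 were Ddit4, Vegfa (-0.34, SE 0.063, adjusted p = 0.0153), Pdk1 (-0.38, SE 0.086, adjusted p = 0.0381) and the mitophagy receptor Bnip3l (-0.37, SE 0.081, adjusted p = 0.0329), and all were also lower against the matched vector. The other 10 falls against the matched vector were not called here: Aldoc was at -0.39 in place of -1.47, Slc2a1 at -0.30 in place of -0.90, Pfkfb3 at -0.12 in place of -0.76 and Egln3 at -0.17 in place of -0.64. Second probes gave -0.02 for both Pdk1 and Bnip3l in this comparison. These comparisons share the CDH1 arrays, and since the vectors lay on different slides, slide and vector cannot be told apart here. The count of 4 went to 2 without CDH1 A, 0 without CDH1 B, 0 without the Puro vector for Cluster 1 A and 1 without its B. Cdh5 (0.79), Kdr (0.57), Hba-a1 (0.90) and Fabp4 (0.84), markers of other cell types, rose in this comparison, and their part in the result was not tested.

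The Puro vectors differed in the members directly. In the Puro vector for CDH1 10 members were higher and 1 lower of 37 than in the Puro vector for Cluster 1, while 5.16% of all genes were called higher and 4.87% lower. The higher ones were Slc2a1 (0.61), Pfkfb3 (0.63), Aldoc (1.08), Hk1 (0.33), Pfkm (0.52), Pfkp (0.54), Egln3 (0.47), Ndrg1 (0.41), P4ha2 (0.52) and Vegfa (0.50), and Kdm3a was lower (-0.38). The largest of these, in Aldoc, had an SE of 0.14 and an adjusted p of 0.000345. Both groups carry a Puro vector without a transgene by their labels. Beside this difference, markers of other cell types were higher in the Puro vector for CDH1 too, 2 of 4 endothelial (Cdh5 0.75 and Kdr 0.53) and Hba-a1 of red cells (0.99), and 0 of 6 leukocyte markers were called; their part in the result was not tested. The count of 11 was 8 without the Puro vector for CDH1 A, 8 without its B, 8 without the Puro vector for Cluster 1 A and 7 without its B. With median centring the split was 8 higher and 2 lower, where 1623 of 18981 genes were called, 556 of them higher.

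In Cluster 1 against the Puro vector for CDH1 2 members were higher and 7 lower, while 4.8% of all genes were called higher and 3.84% lower. Higher were Hk2 and Hif1a (0.43, SE 0.11, adjusted p = 0.0256), a call lost without Cluster 1 B (0.31) and without the Puro vector for CDH1 B (0.30). Lower were Slc2a1 (-0.64), Pfkfb3 (-0.60), P4ha1 (-0.49), Vegfa (-0.48), Aldoa (-0.42), Gpi1 (-0.31) and Hk1 (-0.26), of which Aldoa was not called without any 1 of the 4 arrays (-0.47 to -0.36). Aldoc, at 1.29 against the matched vector, was at 0.20 here, and Egln3, at 0.64, was at 0.16, neither called. The count of 9 was 7 without Cluster 1 A, 5 without its B, 7 without the Puro vector for CDH1 A and 6 without its B. The markers Cdh5 (-0.62), Kdr (-0.36), Hba-a1 (-0.61) and Fabp4 (-0.71) fell in this comparison, and their part in the result was not tested.

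**Figure D3:**
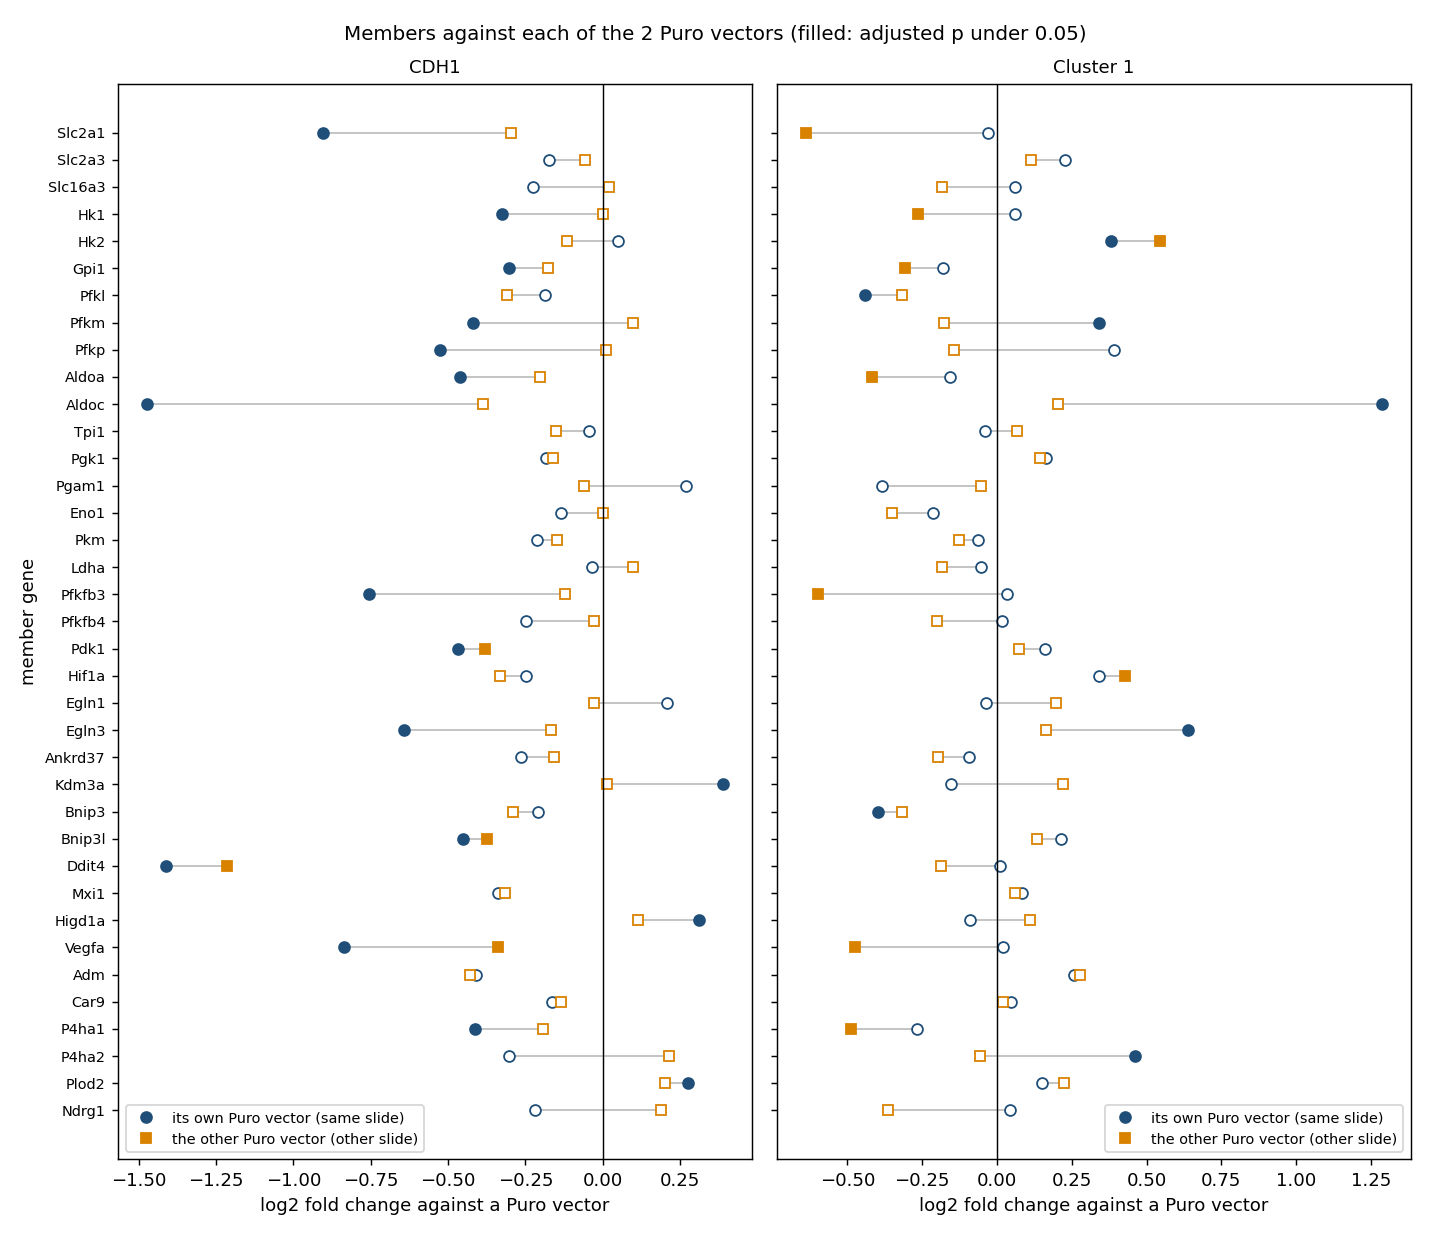
Log2 fold change of each member in CDH1 (left) and Cluster 1 (right) against its own Puro vector (blue circles) and against the other Puro vector (orange squares), filled at an adjusted p under 0.05. In CDH1 the blue circle of Aldoc lies at -1.47 and its square at -0.39, whereas the marks of Ddit4 lie at -1.41 and -1.21.

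The effects of Cluster 1 and CDH1, each against its own vector, differed for 17 of 37 members, where 17% of all genes were called in this difference. Aldoc (2.76, SE 0.20, adjusted p = 2.19e-06) and Egln3 (1.28, SE 0.091, adjusted p = 2.18e-06) had the lowest adjusted p among the members and were called in opposite directions, as was Pfkm. Of the 17 differences 14 were higher and 3 lower in Cluster 1, a split that became 8 and 9 from the sample channel alone. Each of these differences contains the difference between the Puro vectors. That was itself called for Aldoc, Egln3, Hk1, P4ha2, Pfkfb3, Pfkm, Pfkp, Slc2a1, Vegfa and Kdm3a. It was not called for Ddit4, Bnip3l, Pdk1, Hif1a, Pgk1, Pgam1 and Higd1a. The effects of Clusters 1+2 and Cluster 2 differed for 4 of 36, all lower in Clusters 1+2 (Egln3 -0.48, Kdm3a -0.48, Gpi1 -0.39 and Vegfa -0.37), where 6.2% of all genes were called. That count was 1 without the Hygro vector B, 2 without Cluster 2 A, Cluster 2 B or Clusters 1+2 B, and 3 or 4 without any other of the 8 arrays. The effects of Cluster 1 and Cluster 2 differed for Aldoc (1.60) and Egln3 (0.69) among 36, where 2.66% of all genes were called, and these effects were read in different dyes.

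The glycolytic enzymes and the other HIF targets were set side by side by their medians. In Clusters 1+2 the median difference was -0.26 over 13 enzymes and -0.08 over 16 other targets, and in CDH1 -0.20 over 14 enzymes and -0.28 over the 16 targets. In Cluster 1 the medians were -0.05 and 0.03, and in Cluster 2 0.01 and -0.11, while the median of all genes lay between -0.0022 and 0.0060 in these 4 comparisons. The gap, enzymes minus other targets, was 0.001 from repeats A and -0.303 from repeats B in Clusters 1+2, so the slides did not give one gap. In Cluster 2 it was 0.045 and 0.148. In Cluster 1 it was 0.019 and -0.169, and in CDH1 0.056 and 0.121. The repeats of these Cy5 groups share only a letter, so which vector array was set against which was arbitrary there. In Clusters 1+2 7 of 13 enzymes and 8 of 16 other targets were called, where 4688 of all 18961 genes were. In CDH1 6 of 14 enzymes and 8 of 16 other targets were called, where 2749 of all 18984 genes were. Among genes well above background on all 16 arrays the calls were 3905 of 8963 and 3277 of 8982, in that order. A probe saturated in neither channel was also tried, a choice made after the data were seen. With it the gap was -0.039 in Clusters 1+2, against -0.18 with the brightest probe. It was 0.047 against -0.079 in Cluster 1, 0.048 against 0.119 in Cluster 2 and 0.083 against 0.083 in CDH1. The enzyme medians were then -0.12, 0.08, -0.06 and -0.20 in that order.

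**Figure D4:**
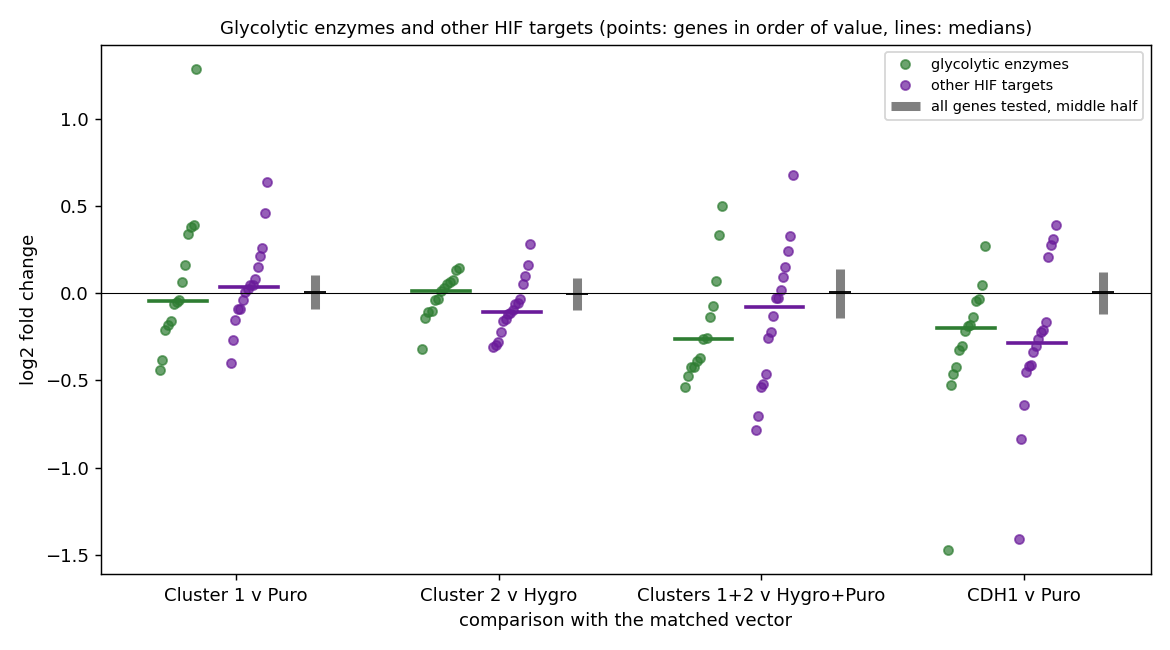
Log2 fold change of the glycolytic enzymes (green) and other HIF targets (purple) in the 4 comparisons with a matched vector, each point a gene and each line a median, beside the interquartile range of all genes tested (grey, black tick at the median). In Clusters 1+2 and CDH1 most points of both lists lie below 0, and the point farthest from 0 among the enzymes is Aldoc in both Cluster 1 (1.29) and CDH1 (-1.47).

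Of the remaining members, Slc2a3 and Slc16a3, further glucose and lactate carriers, and the HIF targets Ankrd37, Mxi1, Adm and Car9 were called in no matched comparison. With the 4 late enzymes above they make 10 such members, whose differences ran from -0.41 (Adm in CDH1) to 0.26 (Adm in Cluster 1), with a lowest adjusted p of 0.0573 (Mxi1). Adm, the vasodilator adrenomedullin, differed by -0.41 and -0.43 from the 2 Puro vectors in CDH1. Bnip3l fell in Clusters 1+2 by 0.26 (SE 0.081, adjusted p = 0.036), a call lost without the Hygro and Puro vectors B (-0.16), Clusters 1+2 A (-0.23) or Clusters 1+2 B (-0.29). In CDH1 it fell by 0.45 (SE 0.081, adjusted p = 0.00234), where its second probe gave -0.07. P4ha1, a collagen prolyl hydroxylase subunit, fell in both, by 0.46 (SE 0.085, adjusted p = 0.00135) and 0.41 (SE 0.085, adjusted p = 0.00529), and its second probe gave -0.41 and -0.42. The P4ha1 call in CDH1 was lost without the Puro vector for CDH1 B (-0.31). Aldoa, the main aldolase of most tissues, fell by 0.46 in CDH1 (SE 0.086, adjusted p = 0.00792) on a probe whose sample channel was saturated on 1 array of each group, so that this size is uncertain. The brightest Aldoa probe with no saturated sample signal gave -0.42 (adjusted p = 0.00417). That second probe had values on 12 arrays, and it gave -0.52 in Clusters 1+2 and no difference for Cluster 2. Its reference channel was saturated on 8 arrays, as was that of the first probe. The call on the first probe was lost without the Puro vector for CDH1 B (-0.45) and without CDH1 B (-0.39). It was also lost from the processed signals, with median centring and from the sample channel alone. Egln1, the oxygen sensor of most cells, rose by 0.24 in Clusters 1+2 (SE 0.079, adjusted p = 0.0397), a call lost in 12 of 17 alternatives.

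The wider pathway lists were counted in the same way, against the shares of all genes called (12.1% higher and 12.6% lower in Clusters 1+2, 7.67% and 6.81% in CDH1, 4.86% and 3.4% in Cluster 1). Of 34 tested further genes of glucose handling 8 rose and 3 fell in Clusters 1+2, led by Tigar, which lowers fructose 2,6-bisphosphate (1.27, SE 0.092, adjusted p = 1.21e-06), Bpgm (0.90), Eno2 (-0.75) and Pgm1 (-0.59). In CDH1 0 rose and 5 fell of 33, among them the mitochondrial Pck2 (-0.66), the glycogen branching enzyme Gbe1 (-0.62), the lactate carrier Slc16a1 (-0.42) and Pgm1 (-0.39). In Cluster 1 3 rose and 0 fell of 34 (Pck2 0.65, Ugp2 0.33 and Mpc1 0.31), and in Cluster 2 none was called. Pck2 thus rose in Cluster 1 and fell in CDH1, each against its own vector, and was 0.42 higher in the Puro vector for CDH1 than in the other.

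Of 31 tested further HIF targets 7 rose and 4 fell in Clusters 1+2. Flt1, a receptor of Vegfa, fell by 2.34 (SE 0.068, adjusted p = 3.54e-10), while the transcription factor Bhlhe40 (1.08) and the carbonic anhydrase Car12 (1.00) rose. Flt1 also fell in Cluster 1 (-0.71) and Cluster 2 (-0.79) and rose in CDH1 (0.56). In CDH1 2 of 31 rose and 6 fell, led by Tfrc, the transferrin receptor (1.02), Bhlhe40 (-0.62), Insig2 (-0.60) and Angptl4 (-0.56). In Cluster 1 3 rose and 2 fell, and in Cluster 2 1 of 30 rose (Angptl4, 0.58) and 1 fell. Of 9 tested HIF pathway components, Arnt, the partner of the alpha subunit, fell in Clusters 1+2 (-0.43) and CDH1 (-0.40), the coactivator Ep300 fell in Clusters 1+2 (-0.53) and the HIF competitor Cited2 rose there (0.20), and none was called in Cluster 1 or Cluster 2.

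Of the tricarboxylic acid cycle, Sdhb (-0.31) and Mdh2 (-0.24) fell in Cluster 1, none of 17 was called in Cluster 2, and Idh3a rose in Clusters 1+2 (0.47) and CDH1 (0.52), and 2 of 16 and 3 of 17 genes were called there. Integrated stress response targets, a programme that shares Ddit4's induction by stress, were counted beside the members. In CDH1, where 6.81% of all genes were called lower and 7.67% higher, 6 of 13 fell (Atf5 -0.98, Trib3 -0.90, Cebpb -0.82 and Sesn2 -0.64 the furthest) and 1 rose, and in the Puro vector for CDH1 4 of 13 were higher than in the other Puro vector, Trib3 by 0.76, with 0 lower by limma. In Clusters 1+2, with 12.1% of all genes called higher and 12.6% lower, 5 rose and 2 fell, led by Atf5 (-0.99) and Asns (0.61), in Cluster 1 2 rose (Trib3 0.69 and Cebpb 0.40) and 0 fell, and in Cluster 2 none was called. How far they bear on the members was not tested.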

How the data were processed

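Total RNA was measured on 16 arrays with 2 colours. The authors deposited scanner files that hold, per the file headers, the intensity of each spot and its local background in both channels (Agilent Feature Extraction 9.5.3.1), and a series matrix with 1 ratio of sample over reference per spot, which matched the processed signals to a log10 difference of 8.06e-08. Spots marked as non-uniform or outlying were left out, 264 to 1493 on an array. normexp corrected the background (offset 50, limma 3.58.1 in R 4.3.3), each array was loess-normalised, giving control spots weight 0, and a probe was kept (27090 in all) where both arrays of some group had its sample signal well over background. The brightest stood for each gene. One limma model of 8 group means was fitted over all 16 arrays and tested on simulated data. Adjusted p-values run over all genes. No build for probe positions is used; promoters are from GRCm38.p6, first listed start per gene.

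Repeat letters of the Cy3 groups coincide with slides, and all 6 pairs of groups deviated together (correlations 0.23 to 0.42), so they pair; in Cy5 they did not (0.012 for CDH1, -0.010 for Cluster 1). Named with per-array values were members called in a matched comparison at an absolute log2 fold change of 0.5 or more and glycolytic enzymes called in 2 or more; from further lists, up to 4 called genes a comparison, of which 1 is not reported here. Members and lists were chosen with earlier results of these data known. The alternatives covered spot flags, processed signals, centring, scaling, offset 10, filters, probe choice, the sample channel alone, the comparison's own arrays, the replicate block and leaving out each array; a probe saturated in neither channel was added after the data were seen. Precision is limited by 2 arrays a group.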

Additional observations from a re-analysis of the deposited data

Results flagged for a closer look

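The results here are members whose effects differed between a pair of comparisons in the model's own test of that difference (limma, Benjamini-Hochberg over all genes, 2 arrays a group). Between Cluster 1 and CDH1, each against its own Puro vector, Aldoc differed by 2.758 and Egln3 by 1.28 on the log2 scale, with Cluster 1 the higher. Ddit4 differed by 1.419, Pfkp by 0.9187, Slc2a1 by 0.8756, Vegfa by 0.8568 and Pfkfb3 by 0.7911. P4ha2 differed by 0.763, Pfkm by 0.7624, Bnip3l by 0.6685, Pdk1 by 0.6284, Hif1a by 0.5887, Hk1 by 0.3871 and Pgk1 by 0.3455. Pgam1 (-0.6521), Kdm3a (-0.5412) and Higd1a (-0.4023) differed the other way, and adjusted p-values ran from 2.18e-06 for Egln3 to 0.0346 for Higd1a. The groups lay on different slides, each with its own vector, and the difference between those vectors is part of each value.

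Between Cluster 1 and Cluster 2, which were read in different dyes, Aldoc differed by 1.603 (adjusted p = 0.00121) and Egln3 by 0.6922 (adjusted p = 0.00175). Between Clusters 1+2 and Cluster 2, Kdm3a differed by -0.4843 (adjusted p = 0.0374), Egln3 by -0.4826 (adjusted p = 0.00679), Gpi1 by -0.3892 (adjusted p = 0.0195) and Vegfa by -0.3708 (adjusted p = 0.0254).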

How the results depend on the processing

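Counts of members called are given here with the genes called, of all tested, in brackets or beside them. With marked outlier spots kept, they were 1 in Cluster 1 (191 of 18993), 10 in Clusters 1+2 (2628) and 10 in CDH1 (1243). They were 1 in CDH1 against the other Puro vector (38), 3 in Cluster 1 against the other (337) and 2 between the Puro vectors (527). In the differences they were 9 for Cluster 1 minus CDH1 (1158) and 0 for Cluster 1 minus Cluster 2 (29). For Clusters 1+2 minus Cluster 2 there were 0 (271). The median gap of enzymes minus other targets in CDH1 became 0.209. Median centring took the median of all genes from -0.0022 to 0.13 in Cluster 2 and from 0.0060 to 0.11 in CDH1. It gave 5 members in Cluster 2 (2278 of 18945 genes), 12 in Clusters 1+2 (3532 of 18961) and 11 in CDH1 (3828 of 18984). It gave 1 in CDH1 against the other Puro vector (417 of 18980) and 1 for Cluster 1 minus Cluster 2 (1007 of 18926). For Clusters 1+2 minus Cluster 2 it gave 12 (2349 of 18928). The gaps were 0.139 in CDH1 and 0.0537 in Cluster 1. For CDH1 against the other Puro vector, the count was 2 from the processed signals, with offset 10 and without the filter on dim probes. It was 1 with the spread scaled or with the mean over probes. Over all genes these settings called 329 of 18980, 347 of 18980, 259 of 27656, 344 of 18980 and 300 of 18983, in that order. For Clusters 1+2 minus Cluster 2 the count was 1 from the processed signals, with offset 10 and with the mean over probes. It was 2 without the filter and with only the comparison's arrays, and 0 with the spread scaled and with the sample channel alone. It was 11 for probes well above background on all 16 arrays. In that order these settings called 344 of 18928, 572 of 18928, 1086 of 18949 and 889 of 27595 genes. The rest called 699, 122 and 461 of 18928, and 1339 of 8938. The filter to all 16 arrays gave 12 of 35 members in Cluster 1, where 2270 of 8977 genes were called. It gave 14 of 35 in Cluster 1 against the other Puro vector, where 2318 of 8979 were. For Cluster 1 minus Cluster 2 it gave 4 of 34 (1006 of 8937 genes). The sample channel alone also gave 4 there (398 of 18926). Clusters 1+2 had 5 calls with the spread scaled, 12 from the sample channel alone and 11 with only its own arrays. Over all genes 1860, 2687 and 3106 of 18961 were called in these settings. The gap in CDH1 was -0.000607 from the processed signals and -0.017 with the spread scaled, and that in Cluster 2 -0.0406 from the sample channel alone.

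Directions reversed from the sample channel alone for Aldoa (0.14) and Higd1a (-0.63) in Cluster 1 against the other Puro vector and for Ndrg1 (-0.60), P4ha2 (-0.28) and Pgk1 (-0.82) in Cluster 1, and with a Gpi1 probe saturated in neither channel, chosen after seeing the data, in CDH1 (0.13), Cluster 1 against the other Puro vector (0.21) and Clusters 1+2 (0.19). The causes were not tested.

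Without 1 array at a time, where the lone array is assumed to vary like the other groups, the calls ranged from 2 to 4 in Cluster 1, 0 to 0 in Cluster 2, 12 to 18 in Clusters 1+2, 11 to 14 in CDH1, 0 to 2 in CDH1 against the other Puro vector, 5 to 7 in Cluster 1 against the other, 7 to 8 between the Puro vectors, and 13 to 15, 2 to 2 and 1 to 4 in the differences. The gaps ranged from 0.0354 to 0.116 in CDH1, -0.113 to 0.0133 in Cluster 1, 0.0554 to 0.147 in Cluster 2 and -0.305 to -0.0221 in Clusters 1+2. In Cluster 1, Clusters 1+2 and CDH1 each fit without 1 array also called fewer genes over all genes than the full fit. The same held against the other Puro vector and between the Puro vectors. Lower counts of members in these fits therefore cannot be read as particular to the members.

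With the replicate block 54 of 56 called values kept their call. Counts were 8 in Cluster 1, 0 in Cluster 2, 21 in Clusters 1+2, 20 in CDH1 and 6 for Clusters 1+2 minus Cluster 2. Over all genes they were 1616 of 18974, 613 of 18945, 4879 of 18961, 3010 of 18984 and 1298 of 18928. In Cy5 the repeats share only a letter.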
